A study of Sus scrofa with 85 samples.

Results

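Cytokines and chemokines are small secreted proteins by which injured tissue calls in and steers leukocytes. 6 of their genes were followed in the heart and blood of swine before and after a myocardial infarction: the chemokines CCL2 (ENSSSCG00000017723) and CXCL8 (ENSSSCG00000008953), the pro-inflammatory cytokines TNF (ENSSSCG00000001404), IL1A (ENSSSCG00000008090) and IL6 (ENSSSCG00000020970), and the anti-inflammatory cytokine IL10 (ENSSSCG00000015652). They are 6 of the 31907 genes of the count table and were chosen by name, with earlier results of the same data known. CCL2 had the most counts in the heart and was higher in the infarcted region at 1–3 h than at baseline and than at 14 days, though the first call depended on each of the 4 baseline libraries and both were lost with counts summed per swine. In the non-infarcted region at 1–3 h the fitted change of CCL2 was of similar size but did not pass the main test. No member differed between the regions in a direct test. TNF was higher in blood than in the infarcted region at 14 days, and IL6 was listed at 0 throughout.

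Micro-endomyocardial biopsies (micro-EMB, submilligram catheter biopsies of the left ventricular wall) and blood were taken from 3 female farm swine of mixed breed, numbered 1640, 1644 and 5385. Samples date from before a balloon occlusion of the distal left anterior descending artery (baseline), from the occlusion itself (0–1 h), from the hours of reperfusion that followed (1–3 h, counted from inflation), and from 2 days and 14 days later. Micro-EMB were aimed at the apical region supplied by the occluded artery (infarcted) or at a lateral region outside it (non-infarcted). The baseline micro-EMB are labelled apical in the sample labels, but the paper states that they were not targeted to a region. They serve both regions here, as in the paper. All swine received anaesthesia, amiodarone against arrhythmia and, after the procedure, buprenorphine and the anti-inflammatory drug meloxicam. No swine without occlusion was analysed here, so occlusion, repeated biopsy and treatment cannot be told apart as sources of a change from baseline.

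In an infarct, dying cells release danger signals, among them IL1A protein, that switch on NF-kB and AP-1 in nearby cells. TNF and IL1A amplify that signal, IL6 and its relatives act through the shared receptor IL6ST and the transcription factor STAT3, CXCL8 attracts neutrophils and CCL2 attracts monocytes, which follow the neutrophils. IL10, made by macrophages and lymphocytes, dampens the production of the others.

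Of the 85 libraries, 57 met the rule of at least 1000000 counts and 7 to 60% of the counts in their 10 most counted genes. They are 4 micro-EMB of baseline, 5, 9, 4 and 7 of the infarcted region at 0–1 h, 1–3 h, 2 days and 14 days, 3, 3, 4 and 6 of the non-infarcted region at the same timepoints, and 1, 2, 4 and 5 blood libraries of baseline, 1–3 h, 2 days and 14 days. The other libraries were 25 with an even count profile (1.30 to 6.33% of the counts in 10 genes), 2 dominated by 10 genes and 1 blood library with 11505 counts. The kept libraries held 3499443 to 16659110 counts (median 7782630). Several libraries of a group come from the same animal, so p-values over libraries measure in part the spread between biopsies of the same heart. Marker genes of cardiomyocytes summed to 14635 to 83990 CPM (counts per 1000000 counts of the library) in 39 of the 45 kept micro-EMB. In the other 6 they summed to 91.9 to 1839 CPM, against 79.9 to 311 CPM in blood. Fibroblast markers summed to 14501 to 83919 CPM in these 6 and to 1329 to 29915 CPM in the 39. These 6 were also the libraries above 25 on component 2 of a principal component analysis of the 500 most variable genes. They are baseline replicate 1, infarcted 0–1 h replicate 3, infarcted 1–3 h replicate 6, infarcted 2 days replicate 6, infarcted 14 days replicate 5 and non-infarcted 1–3 h replicate 4, are called cardiomyocyte-poor libraries here, and the fits that hold them are given with and without them. The paper excluded 6 outlier samples with raised collagen genes, which it read as fibrous tissue. Without the 6 libraries named here, 3 libraries of baseline remain. Of the infarcted region 4, 8, 3 and 6 remain, and of the non-infarcted region 3, 2, 4 and 6. These are the sizes the paper gives for its micro-EMB groups after exclusion. The main fits here include the 6 libraries. Whether they are the paper's excluded samples was not compared sample by sample. Baseline replicate 1 is the single kept baseline library of swine 1644 and infarcted 2 days replicate 6 the single kept library of swine 5385 in its group, so ratios within these animals that rest on them cannot be given without them. In bulk tissue, a lower level can mean fewer cells that make the RNA or less RNA per cell, which cannot be told apart.

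The members lie on 5 chromosomes of the assembly Sscrofa11.1 in the RefSeq annotation. CCL2 is at chr12:40798109-40800013 on the minus strand with 3 exons, and its nearest neighbour, the eosinophil chemokine gene CCL11, is 15247 bases away. CXCL8 is at chr8:69932646-69935861 on the plus strand with 4 exons. TNF is at chr7:23699635-23702393 on the plus strand with 4 exons, 1355 bases from its relative LTA. IL1A is at chr3:43718320-43731668 on the plus strand with 7 exons in the longest of its 5 transcripts. IL6 is at chr9:91506421-91510830 on the plus strand and IL10 at chr9:67400727-67405941 on the minus strand, with 5 exons each. None of the 6 overlaps another annotated gene, on either strand, so none has an antisense partner in this annotation.

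The 250 bases before the annotated starts of CCL2, CXCL8 and IL1A are shown as the 3 windows of the set that hold a STAT or AP-1 motif. The windows were picked by these matches, and any part of the motifs in the levels of the members was not tested. They are RefSeq sequences of Sscrofa11.1, read 5′ to 3′ on the gene's strand, and capitals mark every motif match.
CCL2 (chr12:40800014-40800263, minus strand): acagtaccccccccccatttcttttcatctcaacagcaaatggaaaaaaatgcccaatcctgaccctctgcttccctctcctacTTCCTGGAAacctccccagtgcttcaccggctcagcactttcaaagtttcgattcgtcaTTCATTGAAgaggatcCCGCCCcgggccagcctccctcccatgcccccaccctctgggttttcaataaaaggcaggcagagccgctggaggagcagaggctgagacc
CXCL8 (chr8:69932396-69932645, plus strand): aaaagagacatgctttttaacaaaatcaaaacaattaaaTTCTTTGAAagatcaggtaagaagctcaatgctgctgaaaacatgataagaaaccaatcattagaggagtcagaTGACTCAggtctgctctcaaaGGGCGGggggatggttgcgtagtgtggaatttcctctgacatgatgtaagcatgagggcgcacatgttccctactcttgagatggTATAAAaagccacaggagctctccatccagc
IL1A (chr3:43718070-43718319, plus strand): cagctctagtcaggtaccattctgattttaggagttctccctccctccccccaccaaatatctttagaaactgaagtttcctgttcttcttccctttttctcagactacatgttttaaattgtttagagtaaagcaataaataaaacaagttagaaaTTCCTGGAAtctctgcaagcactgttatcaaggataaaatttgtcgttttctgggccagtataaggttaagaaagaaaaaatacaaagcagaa
5 motifs were searched on both strands, and no matches overlapped: the STAT motif (TTC and GAA with any 3 bases between them), the AP-1 motif TGANTCA, the TATA box TATAAA, the GC box GGGCGG and the consensus of NF-kB, GGGRNWYYCC. In these letters N is any base, R is A or G, W is A or T and Y is C or T. CCL2 has 2 STAT matches, the nearer at 107 to 99 bases before its start, and a GC box. CXCL8 has a STAT match, an AP-1 match, a GC box and, at 31 to 26 bases before its start, a TATA box. IL1A has a STAT match at 93 to 85 bases. Of the other members, IL6 has an NF-kB match at 72 to 63 bases, TNF has 2 GC boxes and a TATA box at 39 to 34 bases, and IL10 has no match. Over the windows of 19556 protein-coding genes, 6.12% hold the STAT motif, 5.27% the AP-1 motif, 5.91% the NF-kB consensus, 9.77% the TATA box and 45.9% the GC box. A match is a run of letters and not a measured binding site. Variants that differ from the letters are missed, so a window without a match can still hold a site.

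CCL2, the monocyte chemoattractant, was low but present in the heart at baseline, at 10.3 CPM in swine 1644, 8.82 CPM in swine 1640 and 4.67 and 3.72 CPM in swine 5385. In the infarcted region during occlusion (0–1 h) it stood at 59.0 and 28.1 CPM in swine 1640, 32.8 CPM in swine 1644, and 11.3 and 1.43 CPM in swine 5385. The groups overlapped, through the cardiomyocyte-poor library of swine 5385 with 5 counts. At 1–3 h it reached 418, 483 and 32.2 CPM in swine 1644, 105, 75.3 and 73.7 CPM in swine 5385 and 24.6, 26.2 and 35.2 CPM in swine 1640. Every one of these 9 libraries was above every baseline library, and the highest values came from swine 1644. The 483 CPM is that of the cardiomyocyte-poor replicate 6. In this library markers of fibroblasts summed to 83919 CPM, the highest of the kept libraries, and markers of macrophages and monocytes to 524 CPM. The part of either in the CCL2 value was not tested. At 2 days it was 16.3 CPM in swine 1644, 25.5 and 21.2 CPM in swine 1640 and 31.6 CPM in swine 5385, again above all baseline libraries. At 14 days it ranged from 6.91 to 48.3 CPM (median 8.45), back among the baseline values in 4 of 7 libraries, and the highest was the cardiomyocyte-poor library of swine 1644. As log2 CPM (prior count 2), the means were 2.71 ± 0.68 at baseline (SD, n = 4), 4.0 ± 2.02 at 0–1 h (n = 5), 6.26 ± 1.62 at 1–3 h (n = 9), 4.54 ± 0.40 at 2 days (n = 4) and 3.58 ± 0.98 at 14 days (n = 7).

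**Figure D1:**
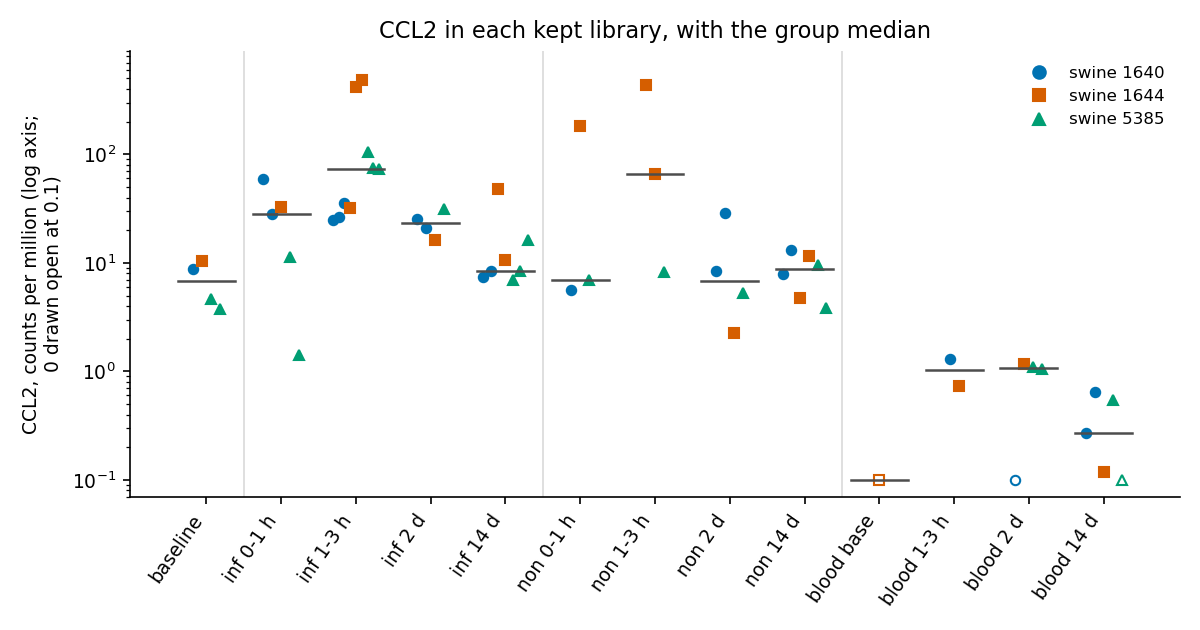
CCL2 in CPM (log axis) in each of the 57 kept libraries by region, timepoint and swine, with the group median as a line and libraries at 0 drawn open at 0.1. The 9 libraries of the infarcted region at 1–3 h (inf) lie between 24.6 and 483 CPM, above the 4 baseline libraries at 3.72 to 10.3 CPM, and in the non-infarcted region (non) the high libraries of the first hours are those of swine 1644.

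In the fit of all genes, CCL2 was higher in the infarcted region at 1–3 h than at baseline, with a log2 fold change of 4.52 ± 1.01 (SE) or 23.0-fold (edgeR, adjusted p = 0.0269). It was 1 of the 4 members that passed the filter on low counts in this fit, and the 1 called. Of all 17929 genes tested, 1.62% were called (140 of the 291 lower, and with the size factors of DESeq2 225 of 343 higher). CCL2 was also higher at 1–3 h than at 14 days, by a log2 fold change of 3.19 ± 0.73 (edgeR, adjusted p = 0.0111), where 5.19% of all genes were called. Against 2 days the log2 fold change was 2.64 ± 0.89 (edgeR, adjusted p = 0.137), with 1.03% of all genes called and no member. Over all timepoints CCL2 was the member called (edgeR, adjusted p = 0.0044), with 3.35% of all genes called. The call against 14 days was lost with all libraries of at least 1000000 counts (3.27, edgeR, adjusted p = 0.116) and with counts summed per swine (2.90, edgeR, adjusted p = 0.245), and that over all timepoints with limma-voom (adjusted p = 0.0769) and summed counts (edgeR, adjusted p = 0.294). Without the 5 cardiomyocyte-poor libraries of the fit, the log2 fold changes were 4.05 ± 0.84 against baseline (edgeR, adjusted p = 0.0253) and 3.39 ± 0.59 against 14 days (edgeR, adjusted p = 0.0022).

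The size of the difference from baseline differed between the animals. The mean CPM at 1–3 h over the mean of the same swine at baseline was 30.1 in swine 1644, 20.1 in swine 5385 and 3.25 in swine 1640. The ratio of swine 1644 divides by its cardiomyocyte-poor baseline library (10.3 CPM) and includes the 483 CPM of replicate 6. All 3 swine were higher, and with 3 pairs the smallest two-sided p a paired permutation test can give is 0.25. With swine as a replicate block the log2 fold change was 4.02 ± 0.89 (edgeR, adjusted p = 0.0299). An exact two-sided permutation test of the plain log2 CPM over the 13 libraries gave p = 0.0028, the smallest this design allows, for a difference of 3.54, or 11.6-fold, and 16 such tests were computed. That test treats libraries of the same swine as independent. The call was lost when any of the 4 baseline libraries (replicates 1, 2, 5 and 6) was left out, over a range of 3.98 to 4.67 and adjusted p of 0.0090 to 0.0857 (edgeR) across all 29 libraries left out in turn. It was also lost without swine 1644, at a log2 fold change of 3.54 (edgeR, adjusted p = 0.102), and with counts summed per swine, at 4.13 (edgeR, adjusted p = 0.137).

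At the other timepoints of the infarcted region no member was called against baseline. For CCL2 the log2 fold changes were 2.09 ± 0.93 at 0–1 h (edgeR, adjusted p = 0.977), 1.89 ± 0.95 at 2 days (edgeR, adjusted p = 1.00) and 1.33 ± 0.86 at 14 days (edgeR, adjusted p = 1.00). At 2 days the 4 libraries did not overlap with baseline, and all 3 swine were above their own baseline, by 2.64, 1.58 and 7.52-fold in swine 1640, 1644 and 5385. The 1.58 rests on the cardiomyocyte-poor baseline library of swine 1644 and the 7.52 on the cardiomyocyte-poor replicate 6 of swine 5385. An exact two-sided permutation test of log2 CPM at 2 days gave p = 0.0286, the smallest 4 against 4 libraries allow. Adjusted over the 16 exact permutation tests it was 0.229, and libraries of the same swine count as independent in it. The share of all genes without overlap was not computed, here or for other groups. Of all 17929 genes, 0% were called by edgeR at each of these timepoints, with 596, 515 and 477 at an unadjusted p under 0.05, and DESeq2 called 2, 8 and 0 and limma-voom 0 each time.

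CXCL8, the neutrophil chemoattractant, had no count in any of the 4 baseline libraries. In the infarcted region it had 0, 2, 0, 13 and 4 counts at 0–1 h. At 1–3 h it had 11, 16 and 40 counts in swine 1644, 1, 3 and 2 counts in swine 1640 and 0 in each of the 3 libraries of swine 5385. The counts of the first hours in this region thus came from 2 swine, and swine 5385 added none. At 2 days it had 0 to 2 counts and at 14 days 0 to 4. In the non-infarcted region it had 42, 0 and 4 counts at 0–1 h in swine 1644, 5385 and 1640, and 20 and 8 counts in swine 1644 and 4 in swine 5385 at 1–3 h. Later it had 0 to 1 counts at 2 days and 0 to 6 counts at 14 days. In 6 of the 45 micro-EMB it had 10 or more counts, and it failed the filter on low counts in every fit. In CPM the means were 0.505 ± 0.649 at 0–1 h (SD, n = 5) and 1.18 ± 1.94 at 1–3 h (n = 9) in the infarcted region and 2.22 ± 3.43 (n = 3) and 1.07 ± 0.84 (n = 3) in the non-infarcted region. Exact two-sided permutation tests of log2 CPM against baseline gave p = 0.0979 for the infarcted and p = 0.0571, the smallest 3 against 4 libraries allow, for the non-infarcted region at 1–3 h. No fold change is given, since baseline is at 0. A count of 0 in 1 library allows up to 0.180 to 0.501 CPM over the 4 baseline libraries, and these limits cover counting error only.

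TNF and IL1A were at the edge of detection in the heart. TNF had 2 to 10 counts at baseline, 0 to 20 in the infarcted region at 0–1 h and 0 to 45 at 1–3 h. In CPM, baseline was at 0.984, 0.835, 0.298 and 0.12. In the 1–3 h group swine 1644 had 5.94, 3.73 and 1.02 CPM, swine 1640 had 3.09, 0.217 and 0.144 CPM, and swine 5385 had 1.67, 1.22 and 0 CPM. The groups overlapped, and the 3 libraries of each swine were themselves far apart. The fitted log2 fold changes of TNF were 1.55 ± 1.14 at 0–1 h (edgeR, adjusted p = 0.977) and 1.63 ± 1.06 at 1–3 h (edgeR, adjusted p = 0.434), −0.36 ± 1.2 at 2 days and 0.60 ± 1.05 at 14 days (edgeR, adjusted p = 1.00 for both). At 2 days the 4 libraries were at 0, 0.54, 1.26 and 0 CPM, a mean of 0.450 against 0.559 CPM at baseline. With all libraries of at least 1000000 counts the log2 fold changes of TNF reversed to −1.79 at 0–1 h and −1.40 at 1–3 h. That setting adds the libraries left out for their profile, among them baseline replicate 3 (even profile) and baseline replicate 4 (dominated by 10 genes). Micro-EMB with an even profile were at 5.87 to 8.27 CPM of TNF. The part of the added libraries in the reversal was not tested.

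IL1A had 0 to 19 counts at baseline, 8 to 29 in the infarcted region at 0–1 h and 1 to 36 at 1–3 h. Its mean was 0.609 ± 0.857 CPM at baseline (SD, n = 4), 2.85 ± 2.39 at 0–1 h (n = 5), 2.16 ± 1.92 at 1–3 h (n = 9), 0.677 ± 0.716 at 2 days (n = 4) and 1.40 ± 0.67 at 14 days (n = 7). The highest baseline value, 1.87 CPM, was that of the cardiomyocyte-poor library of swine 1644, and it lay inside or above the range of every later group. The log2 fold changes were 2.30 ± 0.97 at 0–1 h (edgeR, adjusted p = 0.977) and 1.94 ± 0.90 at 1–3 h (edgeR, adjusted p = 0.263). Without the cardiomyocyte-poor libraries the latter was 3.24 ± 1.14 (edgeR, adjusted p = 0.133).

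IL10 had 3 counts in 1 baseline library, the cardiomyocyte-poor one of swine 1644, and none in the other 3. It was counted in 5 of 5 infarcted libraries at 0–1 h (1 to 18 counts), 7 of 9 at 1–3 h (0 to 23), 4 of 4 at 2 days (4 to 10) and 6 of 7 at 14 days (0 to 16). In CPM its highest value at baseline was 0.295, and at 2 days all 4 libraries were above it, at 0.558, 0.810, 0.970 and 2.61. The fitted log2 fold changes, 3.98 ± 1.33, 3.47 ± 1.25, 3.95 ± 1.36 and 2.22 ± 1.22 at the 4 timepoints, rest on those 3 baseline counts and depend on how counts near 0 are smoothed. None passed the test (edgeR, adjusted p = 0.131 at 1–3 h, and 0.977 to 1.00 at the others). Without the cardiomyocyte-poor libraries all 3 baseline libraries are at 0, and the adjusted p at 1–3 h was 0.0719 (edgeR).

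**Figure D2:**
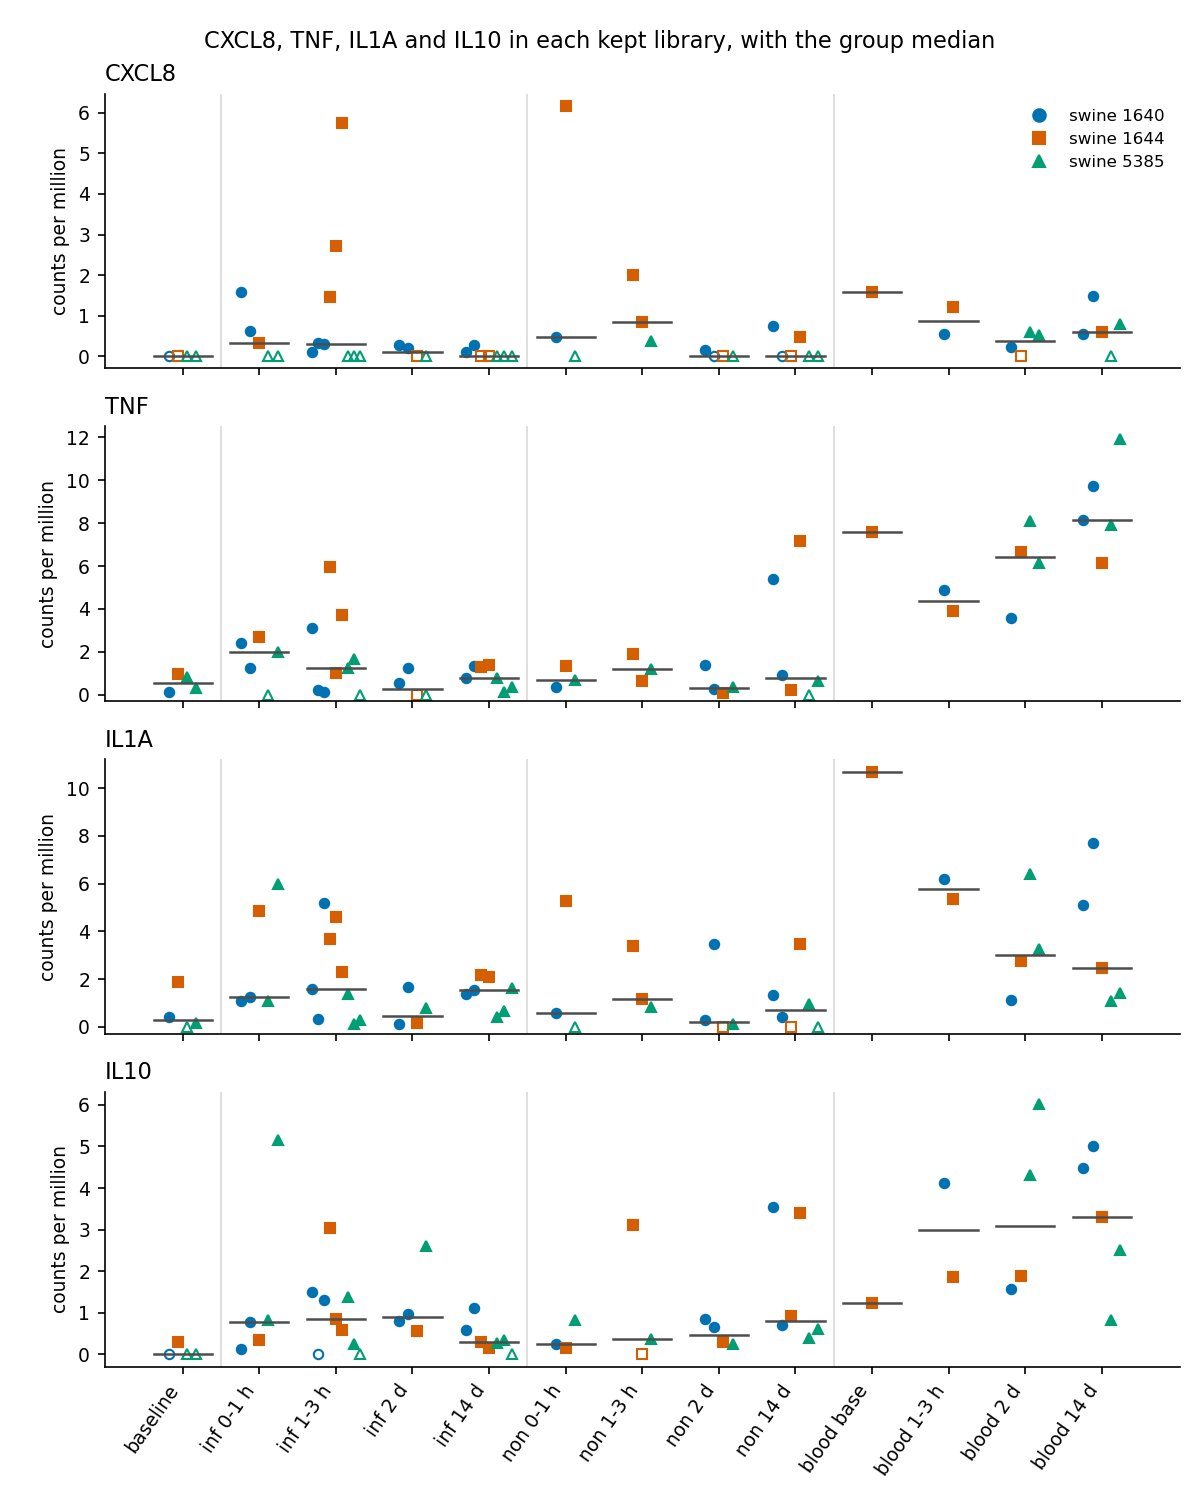
CXCL8, TNF, IL1A and IL10 in CPM (linear axes) in each of the 57 kept libraries by region, timepoint and swine, with the group median as a line and libraries at 0 drawn open. CXCL8 is at 0 in all 4 baseline libraries and highest in swine 1644 in the first hours, and TNF in blood (3.59 to 11.9 CPM) lies above most micro-EMB.

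IL6, the inducer of the acute phase response, was listed at 0 in all 85 libraries. In all, 5461 of 31907 genes (17.1%) were at 0 in every library, and so were 1036 of the 15029 genes with a symbol (6.89%). The latter include POLR2A, the largest subunit of RNA polymerase II, which every cell uses, and the response genes JUNB, SOCS3 and IRF1. The entry of IL6 is therefore given as listed and not as an absence of its RNA, and why it is at 0 was not tested.

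In the non-infarcted region CCL2 showed a different spread. At 0–1 h it was 180.7 CPM in swine 1644 against 6.94 CPM in swine 5385 and 5.60 CPM in swine 1640. At 1–3 h it was 436 and 65.9 CPM in swine 1644 and 8.27 CPM in swine 5385, and no library of swine 1640 was kept. At 2 days it was 8.38 and 28.9 CPM in swine 1640, 5.30 CPM in swine 5385 and 2.24 CPM in swine 1644, and at 14 days 3.86 to 13.2 CPM in all 3 swine. The high values of the first hours were thus all from swine 1644, in which the mean at 1–3 h was 24.3 times its baseline, against 1.97 times in swine 5385. The 436 CPM and the baseline behind the 24.3 are those of cardiomyocyte-poor libraries, replicate 4 and baseline replicate 1. The log2 fold changes from baseline were 3.36 ± 1.11 at 0–1 h (edgeR, adjusted p = 1.00), 4.57 ± 1.16 at 1–3 h (edgeR, adjusted p = 0.403), 0.85 ± 1.01 at 2 days (edgeR, adjusted p = 1.00) and 0.07 ± 0.92 at 14 days (edgeR, adjusted p = 0.978). The value for 0–1 h rests on 1 library and was 0.05 ± 0.98 without replicate 1 of swine 1644. The value for 1–3 h was 2.81 ± 1.21 without the cardiomyocyte-poor libraries and 0.31 ± 0.84 without swine 1644, and it was called by DESeq2 (4.47, adjusted p = 0.0110) and, without replicate 6 of swine 5385, by edgeR (adjusted p = 0.0362). In these 3 libraries of 1–3 h, marker genes of macrophages and monocytes summed to 66.0 to 543 CPM, highest in replicate 4, against 96.1 to 325 CPM at baseline. Fibroblast markers summed to 3010 to 29314 CPM, also highest in replicate 4, against 2623 to 39964 CPM at baseline. The part of either in the result was not tested.

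The other members of the non-infarcted region did not pass the test. IL1A ranged from 0 to 5.29 CPM at 0–1 h and from 0.827 to 3.4 CPM at 1–3 h, and TNF from 0.358 to 1.32 CPM and from 0.634 to 1.90 CPM. In both genes swine 1644 held the highest value at each of these timepoints. IL10 failed the filter on low counts in this fit, so 3 members were tested. Of 18185 genes, edgeR called 0% at 0–1 h, 1–3 h, 2 days and 14 days, with 518, 1282, 373 and 1564 at an unadjusted p under 0.05. DESeq2 called 7, 58, 0 and 0 and limma-voom 0 each time.

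TNF in the non-infarcted region at 14 days stood at 7.16 CPM in replicate 2 (swine 1644), the highest of the kept micro-EMB, and at 5.37 CPM in replicate 3 (swine 1640), while the other 4 libraries lay between 0 and 0.904 CPM. The same 2 libraries had the highest IL10 of their group (3.39 and 3.54 CPM). In them, markers of neutrophils summed to 77.0 and 51.6 CPM and markers of lymphocytes to 89.8 and 68.1 CPM, against 2.34 to 9.36 and 7.01 to 13.9 CPM at baseline and 314 to 747 and 652 to 1072 CPM in blood. The share of the counts in their 10 most counted genes was 11.7 and 15.4%, at the low end of the kept micro-EMB (11.7 to 46.7%). The part of these in TNF and IL10 was not tested.

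**Figure D3:**
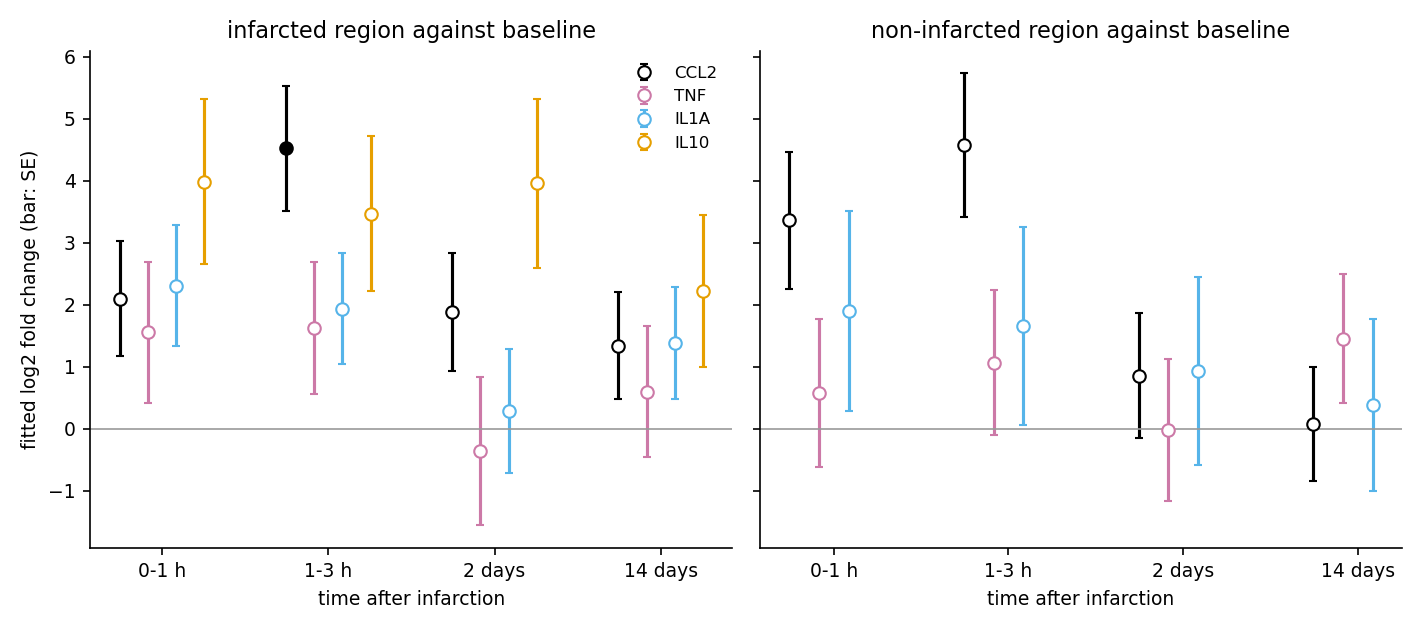
Fitted log2 fold changes from baseline with standard errors (edgeR) for the members that passed the filter, by time after infarction, in the infarcted and the non-infarcted region. The filled point, CCL2 in the infarcted region at 1–3 h (4.52), is the value with an adjusted p of 0.05 or less, and CCL2 in the non-infarcted region at 1–3 h (4.57) was not called.

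Compared directly between the regions, no member passed the test. For CCL2 the log2 difference, infarcted minus non-infarcted, was −1.18 ± 0.99 for 0–1 h, 0.07 ± 0.92 for 1–3 h, 0.96 ± 1.00 for 2 days and 1.18 ± 0.80 for 14 days (edgeR, adjusted p of 0.645 to 1.00). With standard errors near 1, differences of several fold in either direction were not detectable. The regions are those aimed at, and the paper holds that 2 non-infarcted samples most likely came from or near the ischemic area. Without swine 1644 the difference turned to 2.03 ± 0.95 at 0–1 h and was 3.27 ± 1.36 at 1–3 h (edgeR, adjusted p of 0.928 and 1.00), and without the cardiomyocyte-poor libraries it was 1.23 at 1–3 h. For IL10 the largest difference was −1.63 ± 0.89 at 14 days (edgeR, adjusted p = 0.645). Of 18097 genes, 0.0663% were called at 1–3 h, all 12 lower in the infarcted region (0 with swine as a replicate block, without the cardiomyocyte-poor libraries, with limma-voom and with counts summed per swine, at 599, 657, 686 and 490 with an unadjusted p under 0.05), and 0% at 0–1 h, 2 days and 14 days, with 0.956, 3.41 and 5.31% at an unadjusted p under 0.05. DESeq2 called 0, 5 and 0 at those timepoints and limma-voom none.

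Blood held little CCL2 and, after 2 days and 14 days, more TNF than the infarcted region. CCL2 had 0 to 12 counts per library, or 0 to 1.30 CPM, and was lower than in each micro-EMB group it was compared with. The log2 differences, blood minus micro-EMB, were −7.81 ± 1.79 at 1–3 h and −5.40 ± 1.22 at 2 days against the infarcted region, and −6.19 ± 1.18 and −4.90 ± 1.16 at 14 days against the infarcted and non-infarcted region (edgeR, adjusted p of 2.6e-05 to 0.0006). Without profiles under 15% the calls against infarcted 2 days and non-infarcted 14 days were lost. That setting left 1 blood library of 2 days and 2 of 14 days, so fewer libraries and the profile cannot be told apart in it. The median log2 difference of all genes was −0.20, 0.15, 0.05 and −0.39 in these comparisons, and −0.57 in the last with the size factors of DESeq2.

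TNF had 16 to 91 counts in every blood library. It was at 7.59 CPM in the baseline library of swine 1644, 3.89 and 4.88 CPM at 1–3 h, 8.11, 6.67, 3.59 and 6.14 CPM at 2 days, and 7.92, 11.9, 8.16, 9.71 and 6.13 CPM at 14 days. At 2 days and 14 days all blood libraries were above all libraries of the infarcted region, which reached 1.26 and 1.40 CPM. The log2 differences were 3.10 ± 1.08 at 2 days (edgeR, adjusted p = 0.0280), 2.91 ± 0.83 at 14 days (edgeR, adjusted p = 0.0039) and, against the non-infarcted region at 14 days, 2.10 ± 0.84 (edgeR, adjusted p = 0.0438). At 1–3 h, where TNF in the heart reached 5.94 CPM, the difference was 0.75 ± 1.02 (edgeR, adjusted p = 0.702). Without the cardiomyocyte-poor libraries the call at 2 days was lost (2.77, edgeR, adjusted p = 0.0866) and so was that against the non-infarcted region (1.85, edgeR, adjusted p = 0.0842), while that at 14 days remained (3.01, edgeR, adjusted p = 0.0061). The call at 2 days was also lost without infarcted 2 days replicate 1, 2 or 6, and that against the non-infarcted region without any of 32 of the 57 libraries, singly.

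IL10 in blood ranged from 0.819 to 6.01 CPM and was higher than in the infarcted region at 14 days, by a log2 difference of 2.58 ± 0.85 (edgeR, adjusted p = 0.0131), and by 2.24 without swine 1644 (edgeR, adjusted p = 0.0942). At 1–3 h and 2 days, and against the non-infarcted region at 14 days, its differences were 1.13, 0.82 and 1.05 (edgeR, adjusted p of 0.360 to 0.602). IL1A in blood was highest in the baseline library (10.7 CPM), at 5.37 and 6.18 CPM at 1–3 h, and then at 1.12 to 6.41 CPM at 2 days and 1.09 to 7.68 CPM at 14 days. None of its differences from micro-EMB (0.79 to 1.82) passed the test. CXCL8 had 0 to 18 counts in blood, with counts in 10 of 12 libraries. Members called numbered 1 of 4 tested at 1–3 h, 2 at 2 days, 3 at 14 days and 2 against the non-infarcted region at 14 days, where 26.8%, 23.9%, 36.7% and 37.2% of all 18441 genes were called. Between blood at 2 days and at 14 days no member was called, and 0% of all genes (edgeR, 578 at an unadjusted p under 0.05, DESeq2 0, limma-voom 1). The single blood library of baseline has no replicate and enters no comparison.

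Per kilobase of the longest RefSeq transcript, CCL2 was the highest member in every micro-EMB group. Its group medians ran from 9.07 CPM per kb at baseline to 99.1 in the infarcted region at 1–3 h, while those of TNF in micro-EMB stayed at or under 1.2, of IL10 at or under 0.671, of CXCL8 at or under 0.57 and of IL1A at or under 0.450. In blood of 14 days the medians were 4.90 CPM per kb for TNF, 2.49 for IL10, 0.699 for IL1A, 0.396 for CXCL8 and 0.361 for CCL2. Across the 12 groups with replicates, ordered by mean log2 CPM, most neighbours in the order were closer than the larger of their SDs. The gap was wider in 1 of 11 steps for CCL2 (baseline, 2.71, to blood at 1–3 h, 0.29), in 2 of 11 for TNF, in 1 of 11 each for IL1A and IL10 and in none for CXCL8. For CCL2 the order began with the infarcted region at 1–3 h (6.26), the non-infarcted region at that time (5.97) and the infarcted region after 2 days (4.54). For TNF it began with blood of 14 days (3.14), 2 days (2.61) and 1–3 h (2.20), and those of IL1A and IL10 began with the same 3 blood groups in other orders.

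Over the 45 kept micro-EMB, the members varied together to a limited degree. Pearson's r of log2 CPM was 0.67 between CXCL8 and CCL2, 0.51 between TNF and CXCL8, 0.50 between CXCL8 and IL1A, and 0.03 between CCL2 and IL10. These points share swine, timepoints and the library profile. The genes with a symbol whose log2 CPM was most like that of CCL2 were VMP1 (0.91), a membrane protein of autophagy, SBNO2 (0.90) and SLC4A7 (0.90), a bicarbonate transporter. For TNF they were TTLL8 (0.71), TMEM117 (0.68) and RBM47 (0.68), and for IL1A HAS2 (0.66), a hyaluronan synthase, CD83 (0.66), a marker of mature dendritic cells, and SLC41A2 (0.66). For IL10 they were WDFY4 (0.76), DOCK2 (0.71), a leukocyte motility factor, and PRRG4 (0.70). The summed markers of neutrophils had a Spearman's rho of 0.58 with TNF, CXCL8 and IL1A, 0.55 with IL10 and 0.27 with CCL2, and those of lymphocytes 0.63 with IL10 and −0.21 with CCL2. Macrophage and monocyte markers had a rho of 0.43 with IL10, 0.31 with TNF, 0.26 with IL1A, −0.03 with CCL2 and −0.07 with CXCL8. Cardiomyocyte markers had a rho below 0 with each: −0.56 with IL1A, −0.54 with CCL2, −0.42 with TNF, −0.39 with CXCL8 and −0.28 with IL10.

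**Figure D4:**
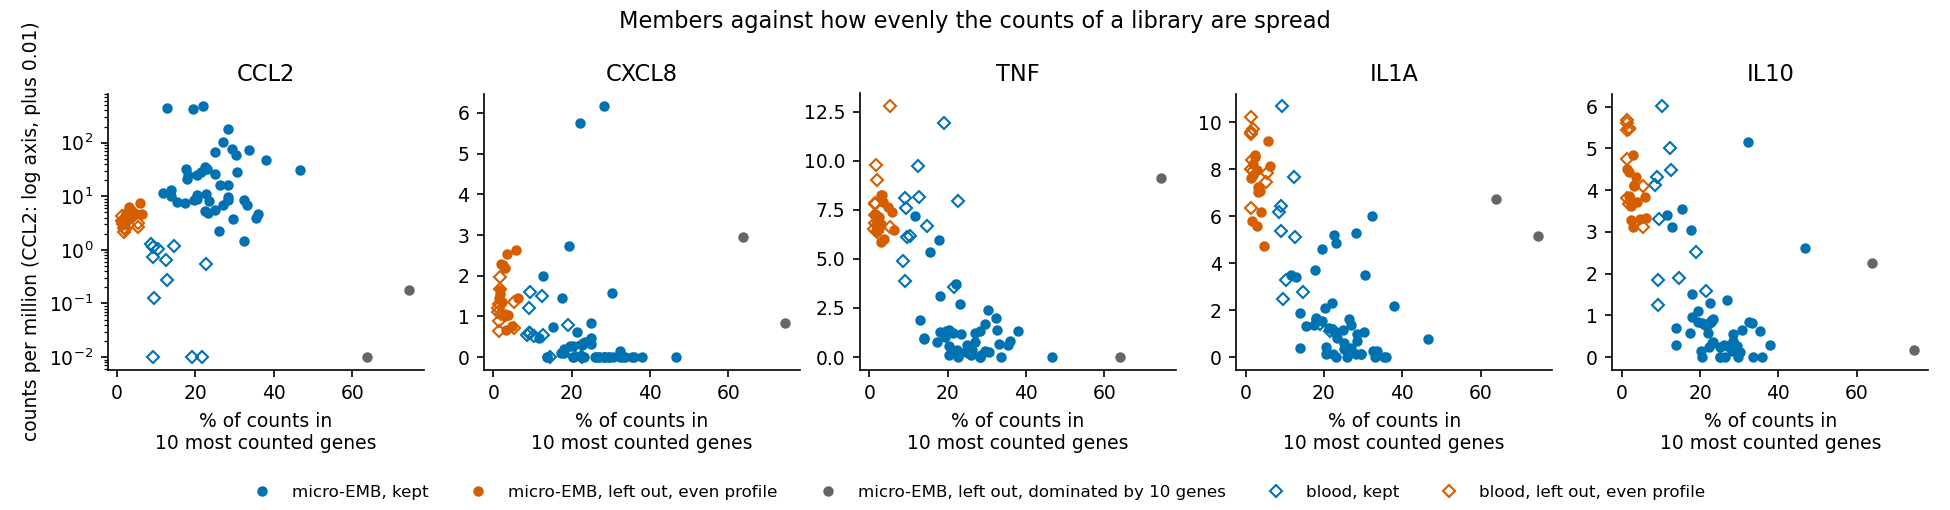
Each member in CPM (CCL2 on a log axis after adding 0.01, the others linear) against the percent of a library's counts in its 10 most counted genes, for kept and left out libraries. The left out libraries with an even profile lie in a narrow band, at 5.87 to 8.27 CPM for TNF in micro-EMB, above the kept baseline libraries at 0.12 to 0.984 CPM.

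The level of the low members also moved with the profile of the library. Spearman's rho with the share of the 10 most counted genes over the kept micro-EMB was −0.37 for TNF, −0.44 for CXCL8, −0.38 for IL1A, −0.34 for IL10 and −0.12 for CCL2. Over the 12 kept blood libraries it was −0.76 for IL1A, −0.54 for CXCL8, −0.47 for CCL2, −0.33 for IL10 and 0.25 for TNF. What part the profile has in the differences between groups was not tested.

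Around the members, the genes of the same pathways were described in the infarcted region at 1–3 h against baseline, where the median log2 fold change of all genes was 0.12 and 1.62% of all genes were called. No gene of the table was called in this comparison without swine 1644 or with counts summed per swine (edgeR, with 2126 and 2842 at an unadjusted p under 0.05), so the calls named here depend on these settings. Of 21 other cytokines, 15 were matched by name and 10 passed the filter. 8 had values above 0 and 2 below, with a median of 1.06, and none passed the test. LIF and IL11, relatives of IL6 that also act through IL6ST, had log2 fold changes of 4.31 ± 1.30 (edgeR, adjusted p = 0.0771) and 5.27 ± 1.79 (edgeR, adjusted p = 0.109). Of 22 other chemokines, 17 were matched and 12 tested, 6 with values above and 6 below 0, with a median of −0.01. CXCL2 rose, a neutrophil chemoattractant from a family of closely similar genes between which reads are hard to divide (1.60 ± 0.42, edgeR, adjusted p = 0.0469).

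Of 19 receptors, 16 were matched and tested, 15 with values above 0, with a median of 1.00. OSMR, the receptor of oncostatin M, rose by 2.80 ± 0.64 on the log2 scale (edgeR, adjusted p = 0.0278) and IL1RAP, the partner of the IL-1 receptor, by 1.99 ± 0.50 (edgeR, adjusted p = 0.0382). IL6ST, the shared receptor of the IL6 family, named for that role, had 0.62 ± 0.24 (edgeR, adjusted p = 0.161). CCR2, the receptor of CCL2, had no matched identifier and was not analysed here. Of 26 targets and feedback genes of NF-kB and STAT3, 22 were tested, 21 with values above 0, with a median of 1.12. STAT3 itself rose (1.81 ± 0.43, edgeR, adjusted p = 0.0357), and the other 21 did not pass.

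Immediate early and stress response genes had the highest list median. All 12 tested of 14 listed had values above 0, with a median of 3.10. The AP-1 gene FOSL1 (8.32 ± 1.88, edgeR, adjusted p = 0.0271), MYC (4.42 ± 1.05, edgeR, adjusted p = 0.0357), ATF3 (4.44 ± 1.07, edgeR, adjusted p = 0.0358) and HMOX1, which breaks down heme (2.92 ± 0.75, edgeR, adjusted p = 0.0432), rose. Against 14 days, 2 cytokines (CSF1 and TGFB1), 1 chemokine (CXCL2), 4 receptors (TNFRSF1B, CCR1, OSMR and LIFR), 4 targets (NFKBIA, NFKB1, RELB and STAT3) and 4 immediate early genes (FOSL1, MYC, DUSP1 and HMOX1) were called, all higher at 1–3 h, and these are named by that result. In that comparison 5.19% of all genes were called, and 0 with counts summed per swine (edgeR, 1926 at an unadjusted p under 0.05). In the non-infarcted region at 1–3 h none was called, and the medians were 0.66, 0.18, 1.47, 1.46 and 2.84 for cytokines, chemokines, receptors, targets and immediate early genes, beside 0.13 for all genes. Both comparisons with baseline share the 4 baseline libraries. Marker genes of neutrophils summed to 0.916 to 46.4 CPM in the infarcted region at 1–3 h against 2.34 to 9.36 CPM at baseline, with all 5 tested above 0 (median 1.74) and none called. Markers of macrophages and monocytes summed to 61.4 to 524 CPM against 96.1 to 325 CPM, and endothelial markers to 83.6 to 1178 CPM against 875 to 1322 CPM. Fibroblast markers summed to 1329 to 83919 CPM against 2623 to 39964 CPM. The part of these markers in the changes was not tested.

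**Figure D5:**
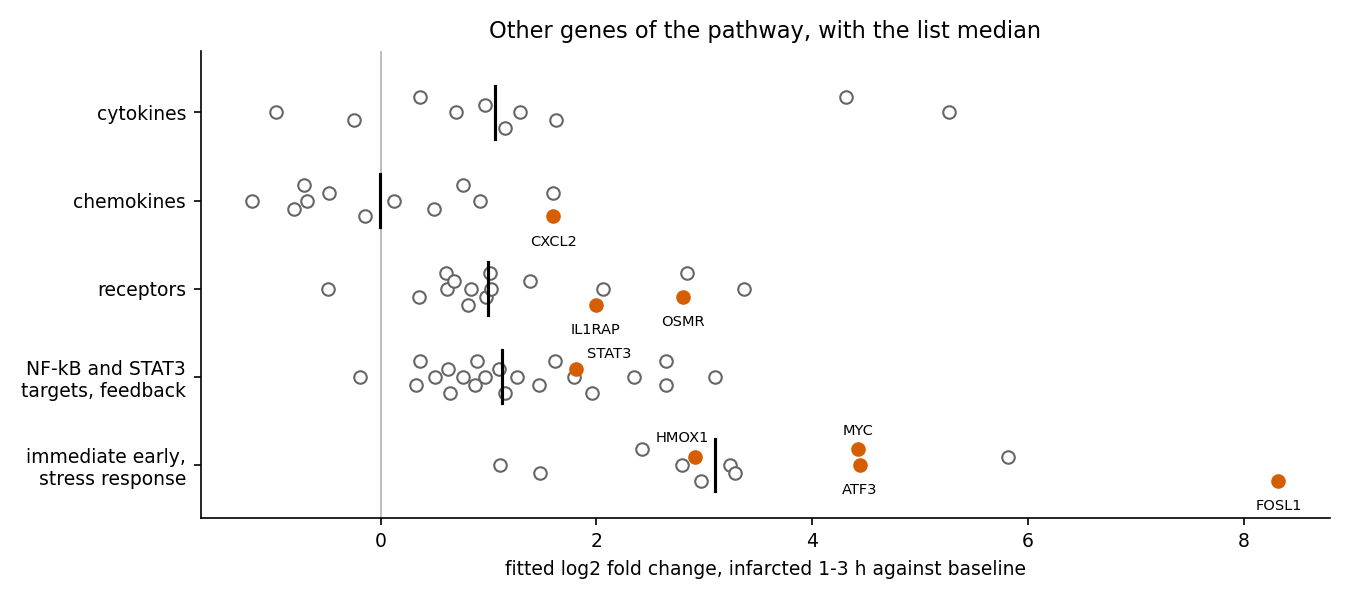
Fitted log2 fold change (edgeR) of the other genes of the pathway in the infarcted region at 1–3 h against baseline, 1 point a gene, with the list median as a line. Filled points, with names, are the 8 genes with an adjusted p of 0.05 or less, all above 0, and the medians range from −0.01 for chemokines to 3.10 for immediate early genes.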

How the data were processed

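Bulk RNA sequencing was analysed from micro-EMB and blood of 3 swine, in 85 libraries. Libraries had been made with a SMARTer Pico stranded total RNA kit, and the authors aligned the reads to Sscrofa11.1 with STAR and counted them per Ensembl gene with featureCounts (versions not given in the sources used here). The deposited values are raw read counts per gene, not normalized, for 31907 genes, 15029 of which were matched to a symbol. The identifier of TNF was not among these and comes from the definition of the gene set. The samples were grouped by their labels. Libraries with at least 1000000 counts and 7 to 60% of them in the 10 most counted genes were kept, with 3499443 to 16659110 counts. CPM is counts per 1000000 counts of the library, and log2 CPM uses a prior count of 2.

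Differences were tested with edgeR 4.0.16 in R 4.3.3 (TMM scaling, quasi-likelihood test, genes kept where 20% or more of the libraries reached 1 CPM, Benjamini-Hochberg adjustment over all genes tested, threshold 0.05). The SE given for an edgeR log2 fold change is its absolute value divided by the square root of the F of its test. It was not taken from the fit and is a rough guide where counts are near 0. The fits were infarcted with baseline, non-infarcted with baseline, both regions, and blood with micro-EMB. Alternatives were DESeq2 1.42.0, limma 3.58.1, other size factors, no filter, swine as a replicate block, counts summed per swine, all libraries with 1000000 counts or more, without the cardiomyocyte-poor libraries, and each library left out. The settings without swine 1644 and without profiles under 15%, the exact permutation tests and the ratios per swine were added after seeing the data. The scripts were tested on simulated data.

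The same swine gave libraries to several groups, so swine number pairs them. Deviations from the group means correlated by 0.105 on average within a swine (293 pairs) and by -0.047 between swine (591 pairs). The 6 members and the pathway and marker lists were chosen with earlier results of these data known. Named are the 6 members, of each pathway list up to 4 called genes with the smallest p at 1–3 h (or the 2 with the smallest p), and the 3 genes with a symbol most correlated with each member. Coordinates, transcript lengths and sequences are from RefSeq for Sscrofa11.1.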

Additional observations from a re-analysis of the deposited data

Results flagged for a closer look

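In 4 of 44 groups of 4 to 10 libraries, the lowest or highest library lay far from the others by Dixon's criterion. All 4 involve libraries with no count, for which the error rate of this criterion does not hold. Where all other libraries are at 0, any count at all meets it. TNF had no count in infarcted 0–1 h replicate 1 (swine 5385), a log2 CPM of -2.11 against 0.56 for the next library. CCL2 had no count in blood of 2 days replicate 4 (swine 1640), a log2 CPM of -2.11 against 0.35 for the next. CXCL8 had 1 count in non-infarcted 2 days replicate 5 (swine 1640), a log2 CPM of -1.43, where the other 3 libraries had none. IL10 had 3 counts in baseline replicate 1 (swine 1644), a log2 CPM of -0.92, where the other 3 had none.

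The 15 micro-EMB left out for an even count profile held more of the low members than any kept baseline library. Their median was 7.15 CPM for TNF, against at most 0.984 CPM in kept baseline libraries, 7.64 CPM for IL1A, against at most 1.87 CPM, 3.84 CPM for IL10, against at most 0.295 CPM, and 1.45 CPM for CXCL8, against 0. CCL2, at 3.06 to 7.40 CPM in these 15 libraries, was inside or below the kept baseline range of 3.72 to 10.3 CPM. In these libraries 1.30 to 6.33% of the counts lay in the 10 most counted genes, a range that covers the left out blood libraries too. The part of the even profile in these levels was not tested.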

How the results depend on the processing

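Of 336 log2 fold changes under other settings, 305 kept their direction and their side of the threshold, 22 lost the call, 3 gained it and 6 reversed, and of 1480 with 1 library left out 1435, 39, 1 and 5 did so. The setting with all libraries of at least 1000000 counts adds those left out for their profile. In it TNF reversed in the infarcted region to -1.79 at 0–1 h and -1.40 at 1–3 h, and IL1A to -0.50 at 1–3 h. Without swine 1644, CCL2 between regions at 0–1 h reversed to 2.03. Without profiles under 15%, the blood differences of IL1A from infarcted 14 days (-0.47) and of IL10 from infarcted 2 days (-0.19) reversed. In that setting 1 blood library of 2 days, 2 of 14 days and none of 1–3 h were left. With 1 library left out, CCL2 between regions ranged from -1.93 to 2.02 at 0–1 h (2.02 without non-infarcted replicate 1) and from -0.49 to 1.71 at 1–3 h. The latter was 3.27 without swine 1644. The cause was not tested.

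The count of members called at infarcted 1–3 h against baseline went from 1 to 0 with all libraries, without swine 1644, without profiles under 15% and with counts summed per swine, and ranged from 0 to 1 with 1 library left out. In this fit the setting without profiles under 15% leaves out baseline replicate 1 alone. Against 14 days it went from 1 to 0 with all libraries and with summed counts, and over all timepoints with limma-voom and with summed counts. With DESeq2 it went from 0 to 1 at infarcted 1–3 h against 2 days and at non-infarcted 1–3 h against baseline, the latter ranging from 0 to 1 with 1 library left out. In blood against infarcted 2 days it went from 2 to 1 with all libraries and without the cardiomyocyte-poor libraries or swine 1644, to 0 without profiles under 15%, and from 1 to 2 with 1 library left out (lost without infarcted 2 days replicate 1, 2 or 6). Against non-infarcted 14 days it went from 2 to 1 with DESeq2, its size factors, all libraries, summed counts and without the cardiomyocyte-poor libraries or swine 1644, to 0 without profiles under 15%, and ranged from 1 to 2 with 1 library left out, with TNF lost in 32 of 57. IL10 in blood against infarcted 14 days was lost without swine 1644 (2.24, edgeR, adjusted p = 0.0942) and without profiles under 15% (1.83, edgeR, adjusted p = 0.247).

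With swine as a replicate block, CCL2 at infarcted 1–3 h had a log2 fold change of 4.02 (edgeR, adjusted p = 0.0299), and the block changed no call of a member. Over all genes, 291 were called at infarcted 1–3 h against baseline by edgeR, 1423 by DESeq2, 337 by limma-voom, 33 without profiles under 15% and 0 without swine 1644 or with summed counts (edgeR), and with all libraries 31 were called higher and 75 lower. With a prior count of 0.5, 13 of 65 mean log2 CPM values moved by more than 1 SD. Counts of 0 to 76 limit TNF, IL1A, IL10 and CXCL8 in micro-EMB.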
